A study of Mus musculus with 19 samples.

Results

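The 10 genes described here bring iron into cells, store it, release it or set how much is taken up, and they are Trf, Tfrc, Tfr2, Steap3, Fth1, Ftl1, Cp, Heph, Hmox1 and Hamp. They were taken by symbol, with earlier results of these data known. All 10 were found among 23337 gene symbols, on 15 of 30455 RefSeq transcript rows, since Heph had 4 rows and Cp and Steap3 had 2 each. Each gene was represented by the row with the highest mean count, and the other rows of Cp, Heph and Steap3 gave the same calls in every comparison.

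Iron travels in plasma bound to transferrin, the product of Trf, and enters most cells when the transferrin receptor, the product of Tfrc, carries it into endosomes, where the reductase Steap3 converts it for transport into the cytosol. Ferritin, a shell of heavy chains (Fth1) and light chains (Ftl1), stores iron that is not in use. Iron leaves cells through ferroportin (Slc40a1) with the help of the copper oxidases ceruloplasmin (Cp) and hephaestin (Heph), and hepcidin (Hamp), a hormone made by hepatocytes, causes ferroportin to be degraded. Heme oxygenase 1 (Hmox1) frees iron from heme, and transferrin receptor 2 (Tfr2) takes part in sensing transferrin iron in liver and red cell precursors. The visceral yolk sac (VYS) is an early site of plasma protein synthesis and of blood formation, and the fetal liver takes over both.

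RNA-seq was done on 11 libraries of ribosomal RNA-depleted RNA. The VYS was separated into its endoderm (ysE) and its mesoderm, the latter taken with vessels and basement membrane, at E9.25 (embryonic day) from FVB/N mice, with 2 libraries of each layer. The ysE at E12.5 had 1 library and the E12.5 fetal liver 2, also from FVB/N mice, and each tissue sample pooled a whole litter. Cystic embryoid bodies (cystic EBs), hollow aggregates grown from embryonic stem cells without LIF, had 4 libraries, 1 each at day 10 (d10) and day 15 (d15) from the clones A9 (XY) and JN (XX), both of C57BL/6×129 origin. No engineered allele is named for any of these groups. The layers of the VYS were parted by hand after incubation with the enzyme Dispase II, for longer at E12.5 than at the earlier stage, a step not described for liver or cystic EBs, so its part in the levels cannot be told apart from tissue and stage. The cystic EBs stand for the culture of these 2 clones only, and the tests counted both days of a clone as separate replicates.

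Counts summed to between 40453779 and 169981821 per library, and the 10 genes held 0.0791% to 2.20% of them. Low counts limit Hamp throughout, Cp in E9.25 ysE, and Tfr2 in ysE of both stages and in cystic EBs. Both VYS mesoderm, both E9.25 ysE and both JN libraries were made with dUTP, both liver and both A9 libraries with ScriptSeq, and the E12.5 ysE library without strand information. E12.5 ysE therefore cannot be told apart from its library protocol, nor the clones from theirs, and liver shares its protocol with the A9 cystic EBs only. The 7 markers of ysE and visceral endoderm summed to 43740 RPKM (reads per kilobase of transcript, scaled to the library's reads) at E12.5 and to 10740 to 11930 at E9.25 in ysE, against 176 to 1577 in cystic EBs, 1195 to 2097 in mesoderm and 1635 to 2950 in liver. The 10 erythroid markers summed to 36350 to 46110 RPKM in mesoderm and 2551 to 3886 in liver, and to between 12.3 and 1075 elsewhere. The 4 pluripotency markers summed to 67.4 to 146 RPKM in cystic EBs and to at most 5.63 in the tissues.

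On GRCm38 the genes lie at chr9:103208876-103230286 (Trf), chr16:32608896-32632794 (Tfrc), chr5:137569822-137588081 (Tfr2), chr1:120226414-120271081 (Steap3), chr19:9980600-9985111 (Fth1), chr7:45457944-45459886 (Ftl1), chr3:19956933-20009750 (Cp), chrX:96455436-96574485 (Heph), chr8:75093618-75100593 (Hmox1) and chr7:30942368-30944029 (Hamp). H3K4me3, a histone mark of active promoters, was mapped in 1 library of whole VYS at E12.5, pooled from several yolk sacs, so both layers contributed. A peak lay within 1 kb of a start, or of either gene end where no strand was known (Trf, Hmox1 and Heph), for 8 of the 10 genes, against 60.5% of 17492 genes with a RefSeq start. Tfr2 and Hamp had none within 1 kb or within 5 kb. The peaks of Trf (5364 bases), Fth1 (3969), Ftl1 (3209) and Hmox1 (2389) carried the highest score in the file, 3100, which only shows that they reached the cap, since 75.3% of the 22343 peaks scored lower. Tfrc scored 3090.85, Heph 1977.07, Steap3 1009.26 and Cp 343.73, the last above 38.2% of all peaks. With peaks in the upper 50% by score only, 7 genes kept a peak and Cp did not, against 48.9% of genes.

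Promoters of 4 genes are shown for their CpG content beside these peaks, 2 with a peak (Tfrc, Ftl1) and 2 without (Tfr2, Hamp). Each is the stretch of 250 bases before a RefSeq start on GRCm38.p6, read 5′ to 3′ on the strand of the gene, with CpG dinucleotides in capitals. The Tfrc sequence lies at chr16:32608646-32608895 on the plus strand and holds 25 CpGs. The Ftl1 sequence lies at chr7:45459887-45460136 on the minus strand and holds 17. The Tfr2 sequence lies at chr5:137569590-137569839 on the plus strand and holds 8, and the Hamp sequence lies at chr7:30944030-30944279 on the minus strand and holds 4. The median over 32851 RefSeq promoters was 6 CpGs, with quartiles of 2 and 16. The other Tfr2 starts, also without a peak, held 4 and 5 CpGs. CpG count and peak did not go together throughout. Within 1 kb of a peak, both Cp starts held 2, 1 of the Fth1 starts held 3, and 3 of the Steap3 starts held 3, 4 and 11. The Fth1 start with 3 CpGs lay 978 bases from the peak, whereas the other Fth1 start, with 21, lay inside it. The Steap3 start with 3 CpGs lay 412 bases from its peak.
Tfrc: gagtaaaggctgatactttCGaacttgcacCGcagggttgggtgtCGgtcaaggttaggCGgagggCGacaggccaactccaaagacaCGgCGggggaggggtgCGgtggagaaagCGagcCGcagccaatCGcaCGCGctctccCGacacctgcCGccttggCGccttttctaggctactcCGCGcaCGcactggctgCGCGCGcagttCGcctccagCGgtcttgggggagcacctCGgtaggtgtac
Ftl1: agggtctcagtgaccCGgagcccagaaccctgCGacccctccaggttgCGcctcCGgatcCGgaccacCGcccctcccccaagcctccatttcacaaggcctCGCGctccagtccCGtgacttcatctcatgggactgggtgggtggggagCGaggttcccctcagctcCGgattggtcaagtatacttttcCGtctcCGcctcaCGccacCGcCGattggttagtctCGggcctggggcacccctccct
Tfr2: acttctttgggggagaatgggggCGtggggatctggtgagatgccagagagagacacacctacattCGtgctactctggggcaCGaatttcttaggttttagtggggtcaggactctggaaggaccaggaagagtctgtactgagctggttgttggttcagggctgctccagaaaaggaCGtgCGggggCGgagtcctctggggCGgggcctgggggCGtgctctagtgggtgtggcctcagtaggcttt
Hamp: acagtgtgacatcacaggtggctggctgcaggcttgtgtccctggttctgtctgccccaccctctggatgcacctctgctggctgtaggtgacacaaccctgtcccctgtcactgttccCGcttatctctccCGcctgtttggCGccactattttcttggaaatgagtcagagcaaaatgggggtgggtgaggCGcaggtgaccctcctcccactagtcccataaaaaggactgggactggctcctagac

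RefSeq promoter sequences were matched for 7 genes (Tfrc, Tfr2, Fth1, Ftl1, Hamp, Cp and Steap3), some with several starts, and they were searched on both strands for 6 short motifs. TTCNNNGAA, the core bound by STAT factors, occurred in the Hamp promoter with its first base 97 bases before the start, and in 7.02% of all promoters. GGCGCC, bound by SMAD factors of BMP signalling, occurred 109 bases before the Hamp start and 89 bases before the upstream Tfrc start, and in 9.59% of promoters. AGATAA, bound by GATA factors, occurred 128 bases before the Hamp start and 45 bases before 1 of the Steap3 starts, and in 9.99% of promoters. ACGTG, the core bound by hypoxia-inducible factors, occurred before 1 Tfrc start and 2 Tfr2 starts, and in 16.6% of promoters. TATAAA, the TATA box, occurred before 1 Fth1 start and 1 Cp start, and in 12.4% of promoters, and TGACNNNGC, the antioxidant response element, in none of the 7 genes and in 10.2% of promoters. No match of 1 motif was removed for overlapping another. These matches describe letters in the window and are no evidence of binding.

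Trf, the iron carrier of plasma, had the widest range of the 9 genes with counts in every library. Its level was 8328 RPKM in E12.5 ysE, where it ranked 4 of all genes and held 2.07% of all counts. The E9.25 ysE libraries had 993 and 1138 RPKM, the liver libraries 305 and 530, and the mesoderm libraries 88.2 and 160. In cystic EBs it was 0.617 (A9) and 3.62 (JN) at d10, and 15.4 (A9) and 18.3 (JN) at d15. Every tissue library lay above every cystic EB library, and the tissue groups did not overlap in RPKM. In the quasi-likelihood test of edgeR, its p-values adjusted over all transcripts after Benjamini and Hochberg, Trf was lower in cystic EBs than in E9.25 ysE by a log2 fold change of -7.26 (SE 1.06, adjusted p = 0.000557), than in liver by -5.79 (SE 1.01, adjusted p = 0.00165) and than in E12.5 ysE by -10.15 (SE 1.23, adjusted p = 0.00027). These calls held in every alternative fit in which they could be recomputed. The RNA came from bulk tissue, so fewer cells of a type and less RNA per cell cannot be told apart. All 7 markers of ysE were lower in every cystic EB library than in every ysE library. In mesoderm all 7 were above 1 RPKM but lower than in E9.25 ysE. Afp had 700 and 1255 RPKM in mesoderm against 6071 and 6628, and Amn 19.5 and 31.9 against 174 and 249. Against liver the ysE markers were mixed, with Afp at 25.8 to 688 RPKM in cystic EBs and 1396 and 2471 in liver, but Cubn at 9.64 to 38.0 in cystic EBs and 0.435 and 0.55 in liver. The 7 hepatocyte markers summed to 8.47 to 72.0 RPKM in cystic EBs and 511 and 1093 in liver, with Alb at 0.009 to 0.812 and at 358 and 767, whereas Tdo2 was higher in every cystic EB library than in liver. The part of these cells in the result was not tested.

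Among the tissues, Trf was higher in E12.5 ysE than in liver (log2 fold change 4.36, SE 1.36, adjusted p = 0.0253, edgeR), a call lost without liver replicate A or replicate B and with limma on log2(RPKM + 1) without a filter, with adjusted p up to 0.126. The log2 fold change of E9.25 ysE over mesoderm was 3.41 with an adjusted p of 0.0592, and that of E12.5 over E9.25 ysE was 2.88 with an adjusted p of 0.203, so neither passed in edgeR's test. The former did pass with DESeq2 (adjusted p = 0.00349), with only the 2 groups fitted (6.02e-05), with library protocol as a term (0.0406) and without the A9 library of d10 (0.00771), and the latter when only the 2 stages of ysE were fitted. The genes whose levels followed Trf most closely over the 11 libraries were the fibrinogen chains Fgg (Pearson's r 0.982 of log2(RPKM + 1)) and Fga (0.976), both secreted plasma proteins, among 11944 genes compared. The libraries share depth and tissue, and these values are descriptions.

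Tfrc, the receptor that takes up transferrin, had its lowest levels in ysE. It was 16.6 RPKM at E12.5 and 21.1 and 17.1 at E9.25. The mesoderm libraries had 107 and 126, and the liver libraries 127 and 189. The cystic EBs held 75.8 (A9) and 104 (JN) at d10, and 60.1 (A9) and 93.2 (JN) at d15. All 3 ysE libraries lay below all others, and the cystic EBs lay between ysE and both mesoderm and liver. In edgeR's quasi-likelihood test Tfrc was lower in E9.25 ysE than in mesoderm (log2 fold change -2.29, SE 0.32, adjusted p = 0.000862) and lower in E12.5 ysE than in liver (-3.22, SE 0.45, adjusted p = 0.000502). It was higher in cystic EBs than in E9.25 ysE (1.67, SE 0.29, adjusted p = 0.00138) and than in E12.5 ysE (1.96, SE 0.40, adjusted p = 0.00416), calls that no alternative removed. Cystic EBs were lower than liver (-1.26, SE 0.26, adjusted p = 0.00388), which was lost without liver replicate B (adjusted p = 0.0561). The difference between the 2 stages of ysE did not pass the test (adjusted p = 0.678, edgeR).

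Carrier and receptor thus stood in different proportions across the groups. The Trf level divided by the Tfrc level, both in RPKM, was 503 for ysE at E12.5 and 47.1 and 66.4 at E9.25, followed by liver with 2.41 and 2.80 and mesoderm with 0.827 and 1.27. In cystic EBs it was 0.00814 and 0.0349 at d10 and 0.256 and 0.197 at d15. No group overlapped another in this ratio, and no test was made on it.

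**Figure D1:**
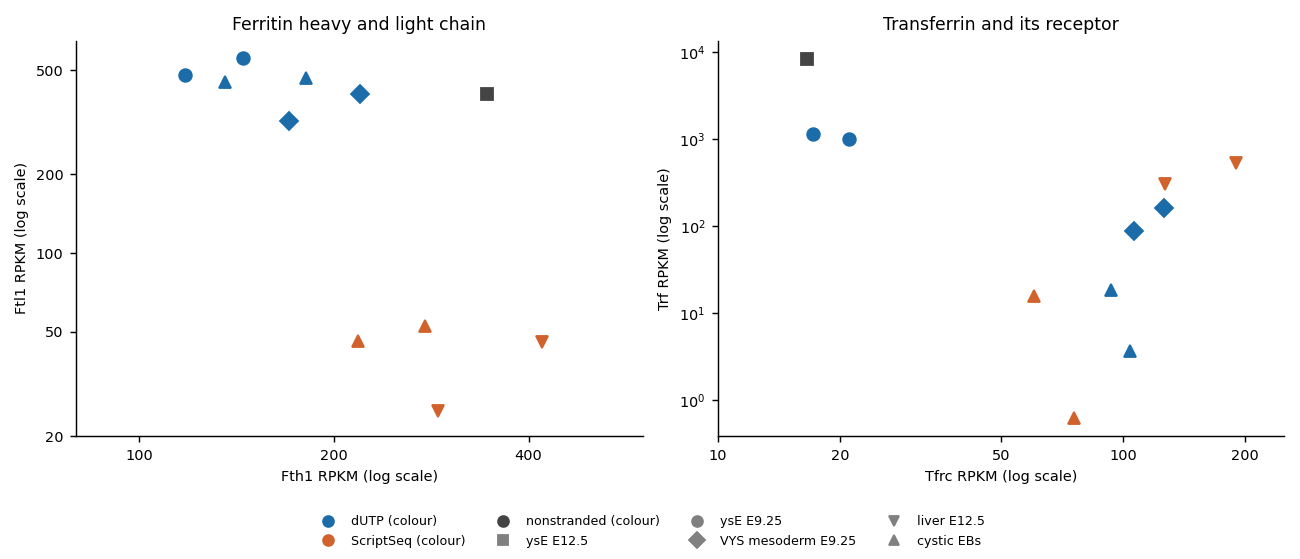
Left, RPKM of Ftl1 against Fth1, and right, RPKM of Trf against Tfrc, with 1 point per library on log axes, the shape giving the group and the colour the library protocol. The 4 ScriptSeq libraries lie between 24.9 and 52.6 RPKM of Ftl1 and the other 7 between 320 and 554, whereas ysE stands apart at low Tfrc and high Trf.

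Tfr2, the second transferrin receptor, and Steap3, the endosomal reductase, were both at their highest in liver and had a Pearson's r of 0.88 over the 11 libraries, as a description, but parted in E12.5 ysE, where Steap3 lay within the range of liver and Tfr2 below mesoderm and liver. Tfr2 was 5.04 and 10.6 RPKM in liver and 2.55 and 2.60 in mesoderm, whereas ysE had 0.086 and 0.17 at E9.25 and 0.682 at E12.5, and the cystic EBs had 0.022 and 0.030 in A9, from 4 and 5 counts, and 0.196 and 0.143 in JN, from 66 and 52 counts. Steap3 was 8.74 and 13.6 RPKM in liver, 4.41 and 5.44 in mesoderm and 9.16 in E12.5 ysE, whereas the E9.25 ysE libraries had 0.348 and 0.508 and the cystic EB libraries 0.217 to 0.376. Both genes were therefore low in E9.25 ysE and in cystic EBs, and the erythroid markers were highest in mesoderm and liver; their part in these levels was not tested.

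Tfr2 was lower in E9.25 ysE than in mesoderm (log2 fold change -4.0, SE 0.90, adjusted p = 0.0084) and than in liver (-5.80, SE 0.97, adjusted p = 0.000941) by edgeR, the former with an adjusted p of 0.0808 once E9.25 ysE replicate A was left out. Cystic EBs lay below liver (-6.58, SE 0.75, adjusted p = 0.000176). The E12.5 ysE lay above cystic EBs (cystic EBs minus ysE -3.10, adjusted p = 0.0144, edgeR) and below liver (adjusted p = 0.0352), the former call lost when only these groups were fitted and with limma on log2(RPKM + 1), with or without a filter (adjusted p up to 0.18), the latter without liver replicate B or either mesoderm library (adjusted p up to 0.106). No difference between cystic EBs and E9.25 ysE passed the test (adjusted p = 0.379, edgeR). Steap3 was lower in E9.25 ysE than in mesoderm (-3.21, SE 0.36, adjusted p = 0.000348) and than in liver (-4.58, SE 0.38, adjusted p = 3.21e-05), and lower in cystic EBs than in liver (-5.49, SE 0.30, adjusted p = 3.54e-06), each in edgeR's test and in every alternative. Cystic EBs also lay below ysE of E12.5 (adjusted p = 1.61e-05) and, by a log2 of -0.90 (SE 0.28, adjusted p = 0.0248, edgeR), below ysE of E9.25, the latter call lost without E9.25 ysE replicate B (adjusted p = 0.258), when only these groups were fitted (0.103) and with limma (up to 0.68). Steap3 rose from E9.25 to E12.5 in ysE (4.33, SE 0.40, adjusted p = 0.00119), whereas the log2 fold change of Tfr2 there was 2.32 with an adjusted p of 0.169 (edgeR).

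**Figure D2:**
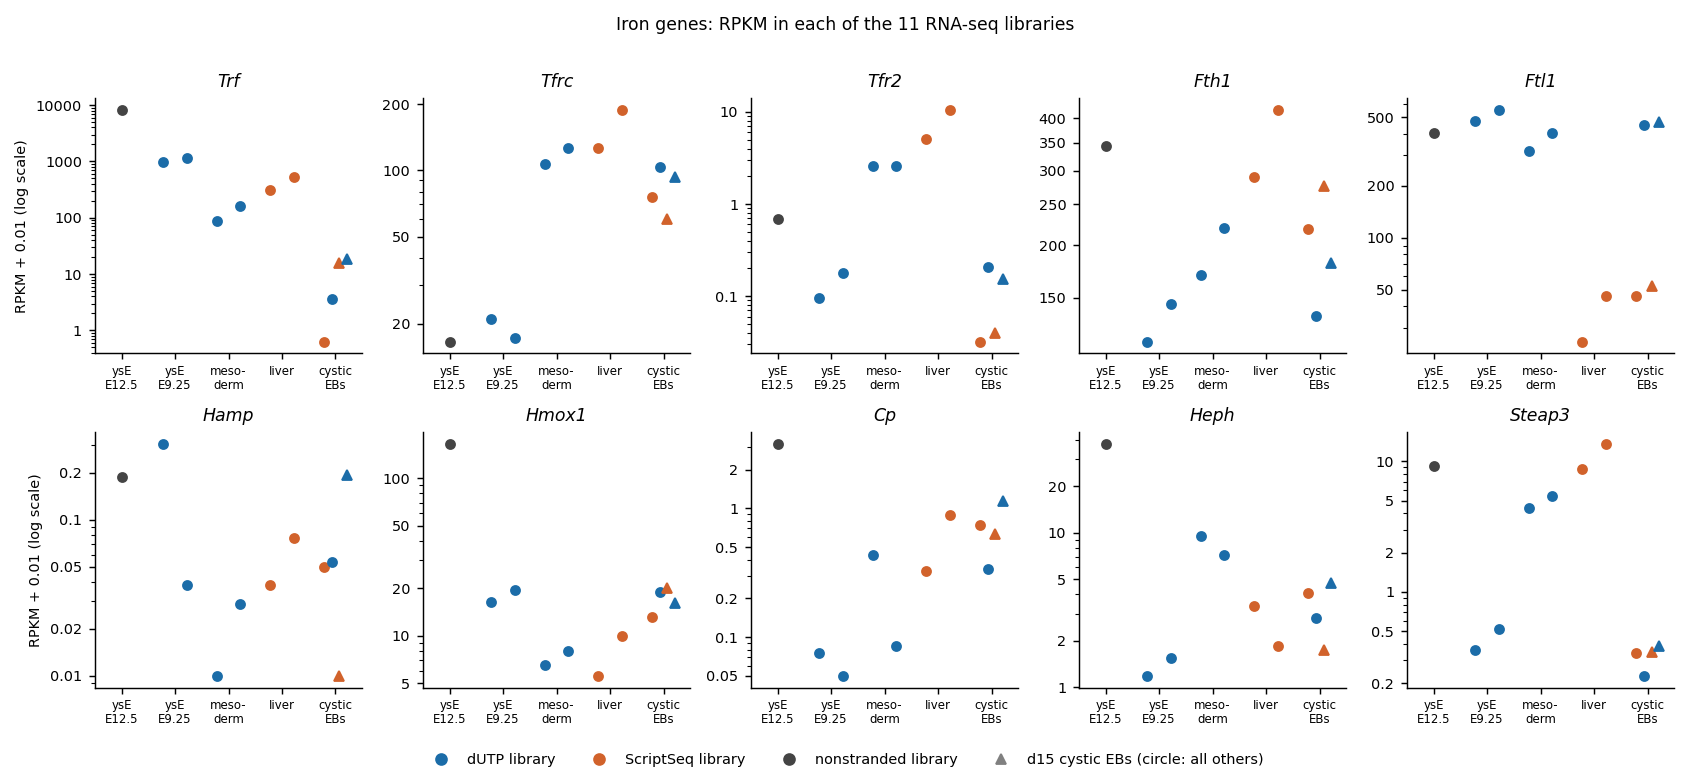
RPKM plus 0.01 on a log axis for each of the 10 genes, with 1 point per library, the 5 groups on the x axis and the colour giving the library protocol; triangles are d15 cystic EBs. The single E12.5 ysE library has the highest point for Trf (8328 RPKM), Hmox1 (166), Cp (3.17) and Heph (37.7).

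The ferritin chains are read with a limit that concerns both. Ferritin genes have processed pseudogenes of near-identical sequence, and how reads that fit several copies were counted is not given in the sources used here, so their levels are uncertain. Fth1 was 345 RPKM in ysE at E12.5, against 118 and 145 at E9.25. The mesoderm libraries had 170 and 219, the liver libraries 290 and 420, and the cystic EB libraries 136 to 277. Of the 10 genes it had the narrowest range across the 11 libraries. Fth1 was lower in E9.25 ysE than in liver (log2 fold change -1.31, SE 0.36, adjusted p = 0.0128), lower in cystic EBs than in liver (-1.13, SE 0.30, adjusted p = 0.0136) and than in E12.5 ysE (-1.12, SE 0.37, adjusted p = 0.0382), all by edgeR. The first was lost with library protocol as a term and without E9.25 ysE replicate A or liver replicate B (adjusted p up to 0.17), and the second without liver replicate B (adjusted p = 0.129) and with limma. The third was lost in 10 of 17 alternatives (adjusted p up to 0.21), among them leaving out any library of E9.25 ysE or mesoderm, d10 replicate A or d15 replicate B.

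Ftl1 fell into 2 ranges that followed the library protocol. It was 478 and 554 RPKM in ysE at E9.25 and 405 at E12.5, mesoderm had 320 and 405, and the JN cystic EBs had 451 (d10) and 467 (d15). It was 24.9 and 45.6 in liver, and 46.2 (d10) and 52.6 (d15) in the A9 cystic EBs. The 4 low libraries were the 4 made with ScriptSeq, and the 2 clones of the same tissue differed by a log2 of 3.28 at d10 and 3.15 at d15, on log2(RPKM + 0.1). Of 11796 genes, 205 (1.74%) differed as far and in the same direction on both days. Clone and protocol cannot be told apart here. A fit with library protocol as a term takes that term from these clones alone, since no other group had 2 protocols.

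In edgeR's quasi-likelihood test Ftl1 was higher in E9.25 ysE than in liver (log2 fold change 4.0, SE 1.11, adjusted p = 0.013) and in E12.5 ysE than in liver (3.56, SE 1.19, adjusted p = 0.0334). With library protocol as a term the former came to 0.84 and was no longer past the threshold. It was also lost without liver replicate A or replicate B (adjusted p up to 0.0918 over its alternatives), and the latter was lost in 7 of 17 alternatives, without either library of liver or of E9.25 ysE and with limma (adjusted p up to 0.149). The Ftl1 level divided by the Fth1 level was 0.0856 to 0.211 in the 4 ScriptSeq libraries and 1.17 to 4.06 in the other 7. Within the JN clone it was 3.31 at d10 and 2.58 at d15. In the tissues of the same protocol it was 4.06 and 3.82 for E9.25 ysE and 1.88 and 1.85 for mesoderm.

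Exon-part counts, available in 5 libraries, showed the same split. In reads per 1000000 counted, the Ftl1 locus, counted together with 1 overlapping gene, had 869 in E9.25 ysE replicate A and 845 (d10) and 820 (d15) in JN, but 128 and 139 in A9. For Fth1 the direction was the opposite, with 286 and 348 in A9 against 168 and 212 in JN and 138 in E9.25 ysE. The first exon part of Fth1 held 22.6% of its reads in E9.25 ysE and 22.8% and 24.0% in JN, but 5.40% and 4.12% in A9. Coverage along Fth1 therefore also differed between the 2 ScriptSeq and the 3 dUTP libraries read here.

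Hmox1, which releases iron from heme, was highest in E12.5 ysE at 166 RPKM. The E9.25 ysE libraries had 16.3 and 19.6 and the cystic EB libraries 13.1 to 20, which overlapped, and mesoderm (6.47 and 8.02) and liver (5.54 and 9.97) lay below them. It rose from E9.25 to E12.5 in ysE (log2 fold change 3.12, SE 0.38, adjusted p = 0.00272, edgeR) and was higher in E12.5 ysE than in liver (4.46, SE 0.40, adjusted p = 6.47e-05). Cystic EBs were lower than E12.5 ysE (-3.64, SE 0.31, adjusted p = 5.16e-05, edgeR). These 3 calls held in the 17 alternatives run for each. No alternative for them left out the single E12.5 ysE library or took library protocol as a term. At E9.25, Hmox1 was higher in ysE than in mesoderm (1.62, SE 0.33, adjusted p = 0.00523, edgeR), a call lost without mesoderm replicate A (adjusted p = 0.0573), and higher than in liver (adjusted p = 0.00712), lost without liver replicate A (adjusted p = 0.058). The call against liver for cystic EBs (0.82, SE 0.29, adjusted p = 0.0429) was lost in 11 of 20 alternatives, with an adjusted p of 0.292 without liver replicate A. The 8 macrophage markers, of cells that also express Hmox1, summed to 32 RPKM in ysE at E12.5 and 25 to 27.7 at E9.25, beside 66.5 to 67.9 for mesoderm and 29.2 to 35.7 for liver. Most of the ysE sums was Fcgr3 (20.2 and 21.8 RPKM at E9.25, 21.6 at E12.5), while Csf1r was 0.884 and 1.15 at E9.25 and 8.59 at E12.5, and Mrc1 2.18 and 2.49 at E9.25 and 0.249 at E12.5. The part of macrophages in the Hmox1 levels was not tested.

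The 2 copper oxidases that assist iron export were also highest in E12.5 ysE. Heph was 37.7 RPKM there and 1.17 and 1.54 at E9.25. Mesoderm had 9.57 and 7.12, liver 3.33 and 1.83, and the cystic EB libraries 1.75 to 4.71. Heph rose from E9.25 to E12.5 in ysE (log2 fold change 4.71, SE 0.53, adjusted p = 0.00217) and was higher in E12.5 ysE than in liver (3.90, SE 0.52, adjusted p = 0.00038) by edgeR. It was lower in cystic EBs than there (adjusted p = 0.000137, edgeR). At E9.25 it was lower in ysE than in mesoderm (adjusted p = 0.00422, edgeR), so its place relative to mesoderm was the opposite of that of Hmox1. The 6 endothelial markers summed to 164 to 182 RPKM in mesoderm and 6.15 to 8.47 in E9.25 ysE. The 6 of mesenchyme and smooth muscle summed to 1298 to 1499 and 45.8 to 64.7, though Pdgfra overlapped. The part of these cells in the difference was not tested. The Heph call against mesoderm held in all 19 alternatives, and the calls with E12.5 ysE held in the 17 run for each. None of those 17 left out the single E12.5 ysE library or took library protocol as a term.

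Cp was at low levels throughout, with 3.17 RPKM in ysE at E12.5 and 0.066 and 0.040 at E9.25. Mesoderm had 0.428 and 0.075, liver 0.314 and 0.873, and the cystic EB libraries 0.329 to 1.13. It rose from E9.25 to E12.5 in ysE (log2 fold change 5.82, SE 1.02, adjusted p = 0.0114, edgeR), a call lost without either E9.25 ysE replicate (adjusted p up to 0.0938). It was higher in cystic EBs than in E9.25 ysE (3.26, SE 0.82, adjusted p = 0.00928, edgeR) and lower than in E12.5 ysE (-2.55, SE 0.77, adjusted p = 0.0259). The former was lost without E9.25 ysE replicate B (adjusted p up to 0.0846 over its alternatives). It was lower in E9.25 ysE than in liver (-3.35, SE 0.88, adjusted p = 0.00952, edgeR), a call lost without E9.25 ysE replicate B (adjusted p = 0.073) or liver replicate B (adjusted p = 0.0586), and with limma on log2(RPKM + 1), with or without a filter (adjusted p up to 0.127). The 69 counts of Cp over both E9.25 ysE libraries limit this comparison. In E12.5 ysE against liver Cp had a log2 fold change of 2.46 (SE 0.925). It was not called in the reported fit and was called in 8 of 17 alternatives.

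Hamp, the hormone that limits iron export, was barely detected. Its counts were 3 for ysE at E12.5 and 14 and 2 at E9.25, mesoderm had 0 and 1, liver had 1 and 2, and cystic EBs had 1 (A9) and 2 (JN) at d10 and 0 (A9) and 9 (JN) at d15. No comparison called it, and no fold is given. The 7 hepatocyte markers summed to 511 to 1093 RPKM in liver and 1760 in E12.5 ysE, of which Fgb alone was 99.8 and 194 in liver and 1508 in E12.5 ysE. Alb was 358 and 767 RPKM in liver and 80.5 in E12.5 ysE, whereas Cyp2d10 was at most 1.03 in any library.

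The calls over the 10 genes are set beside the share of all 24858 tested transcripts called in the same direction at a false discovery rate of 5% by edgeR. In E9.25 ysE against mesoderm, 1 of the 10 was higher (Hmox1; 13.7% of all transcripts) and 4 were lower (Tfrc, Tfr2, Heph and Steap3; 16.9%). In E9.25 ysE against liver, 2 were higher (Ftl1 and Hmox1; 26.7%) and 5 lower (Tfrc, Tfr2, Fth1, Cp and Steap3; 28.3%). With so many transcripts called, a count of this size says little about iron genes as a group.

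In cystic EBs against E9.25 ysE, 2 were higher (Tfrc and Cp, where 27.1% of all transcripts were) and 2 lower (Trf and Steap3, 23.2%). Against liver, 1 was higher in cystic EBs (Hmox1, 24.6%) and 5 lower (Trf, Tfrc, Tfr2, Fth1 and Steap3, 20.9%). Against E12.5 ysE, 1 was higher (Tfrc, 21.1%) and 7 lower (Trf, Tfr2, Fth1, Hmox1, Cp, Heph and Steap3, 18.8%). The median log2 fold change of the 10 genes there was -2.83, beside 0.42 over all transcripts. These 3 comparisons share the cystic EB libraries. With cystic EBs of the same library protocol only, 4 genes were called for JN against E9.25 ysE and 5 for A9 against liver, where Hmox1 was lost. The share of all transcripts called in that fit is not given.

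In E12.5 against E9.25 ysE, 4 of the 10 were higher (Hmox1, Cp, Heph and Steap3) and 0 lower, where 3.90% of all transcripts were higher and 4.57% lower. The median was 2.60 for the 10 genes and -0.20 for all transcripts. This comparison, like those of cystic EBs and of liver with E12.5 ysE, rests on a single E12.5 ysE library. The spread of that library is taken from the other groups, and it also differed in protocol. In E12.5 ysE against liver, 4 were higher (Trf, Ftl1, Hmox1 and Heph, 22.6%) and 2 lower (Tfrc and Tfr2, 23.7%).

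**Figure D3:**
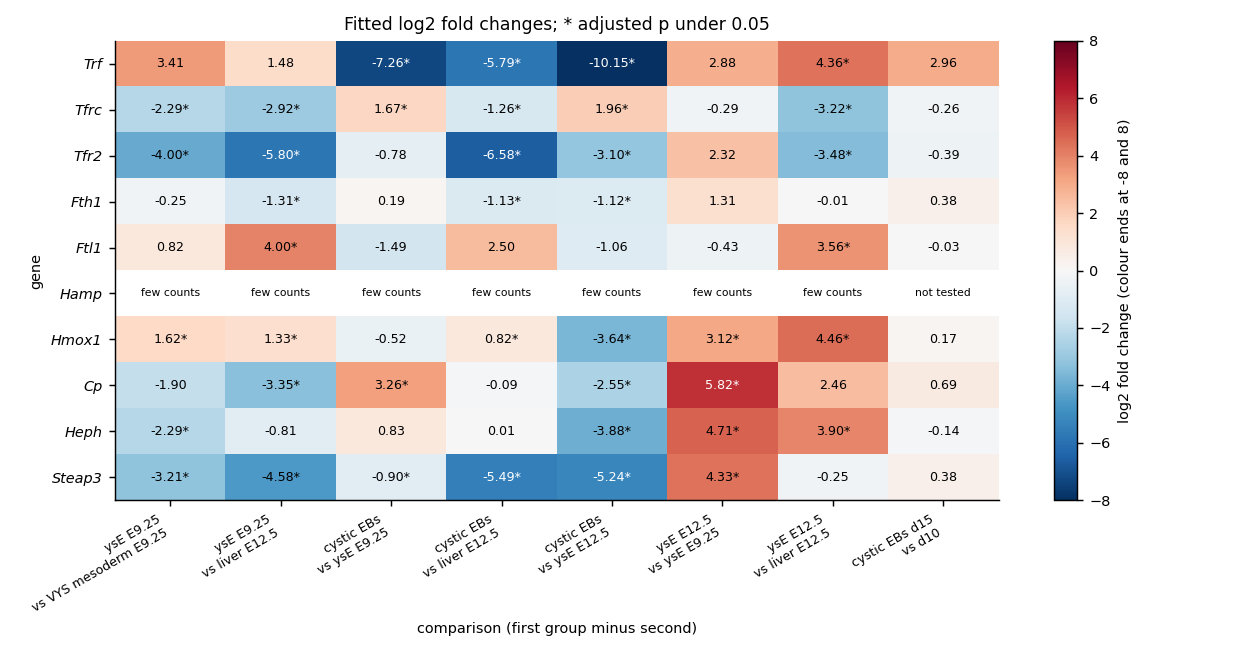
Log2 fold changes fitted by edgeR for the 10 genes (rows) in 8 comparisons (columns, first group minus second), with an asterisk where the adjusted p is under 0.05; Hamp had too few counts for a fold. The column of cystic EBs against E12.5 ysE holds 8 asterisks, 7 of them for lower levels, and the column of d15 against d10 holds 0.

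From d10 to d15 of culture, 0 of the 9 genes tested were called in cystic EBs in either direction, where 0% of 22452 transcripts were called higher and 0% lower by edgeR, and DESeq2 also called 0 of these genes. At an unadjusted p under 0.05 the edgeR test had 1 of the 9, Trf, and 304 of all transcripts. Trf went from 0.617 to 15.4 RPKM in A9 and from 3.62 to 18.3 in JN, higher at d15 in both clones, with a log2 fold change of 2.96 (SE 0.90) and an adjusted p of 1 in edgeR's test. With 1 library per clone and day, a change of this size did not pass the correction over all transcripts.

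A wider list of 39 other genes of iron handling, of which 38 were in the table and 36 were tested, was read in the same fits. In E9.25 ysE against mesoderm, 8 were higher and 5 lower, where 13.7% and 16.9% of all transcripts were. Ferroportin, Slc40a1, the exporter, was higher in ysE (log2 fold change 1.72, SE 0.39, adjusted p = 0.00866, edgeR), at 28.8 to 33.3 RPKM against 10.5 to 13.1. Mfi2, a membrane-anchored relative of transferrin, was higher (2.98, SE 0.55, adjusted p = 0.0033), and so was Bmp6 (1.74, SE 0.41, adjusted p = 0.011), a ligand that induces hepcidin. Hfe, which binds the transferrin receptor, was lower in ysE (-3.24, SE 0.51, adjusted p = 0.00144), and so were the hemoglobin scavenger Hp (-3.15, SE 0.77, adjusted p = 0.0127) and Slc25a37 (-2.96, SE 0.28, adjusted p = 0.000201), the mitochondrial iron importer of red cell precursors.

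From E9.25 to E12.5 in ysE, 8 of the 36 rose and 1 fell, beside 3.90% and 4.57% of all transcripts. Steap4, a metalloreductase, was 0.109 to 0.135 RPKM at E9.25 and 32.1 at E12.5 (adjusted p = 0.00337, edgeR). Hpx, which carries heme in plasma, was 0.479 to 0.492 and 78.2 (log2 fold change 7.25, SE 0.82, adjusted p = 0.00229, edgeR). Hfe also rose (4.81, SE 0.58, adjusted p = 0.00264), and Steap1 fell by 2.92 on the log2 scale (SE 0.54, adjusted p = 0.0136). The heme scavenger Hpx and the heme oxygenase Hmox1 thus both rose between these stages. The 7 hepatocyte markers summed to 289.8 and 349 RPKM at E9.25 and 1760 at E12.5, with Alb at 0.221 and 0.194 and then 80.5 and Ahsg at 0.040 and 0.072 and then 152, whereas Tdo2 was 4.38 and 6.30 and then 0.256. Their part in these changes was not tested.

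In cystic EBs, most of the wider list that passed the test was lower than in tissue. Against E9.25 ysE, 1 was higher (Hpx, log2 fold change 1.82, SE 0.58, adjusted p = 0.0264, edgeR) and 18 lower, with Mfi2 at -6.30 (SE 0.49, adjusted p = 2.75e-05) and the metal importer Slc39a8 (adjusted p = 9.5e-05) leading, beside 27.1% and 23.2% of all transcripts. Slc40a1 was also lower (-2.16, SE 0.31, adjusted p = 0.000534), at 5.48 to 12.6 RPKM, and so was Glrx5 (adjusted p = 1.78e-05), needed for iron-sulfur clusters, at 18.4 to 23.6 RPKM against 64.5 to 88.1 in every tissue library. Against liver, 7 were higher, with the folate and heme transporter Slc46a1 at 2.04 (SE 0.35, adjusted p = 0.00149) and Neo1, a hemojuvelin receptor, at 1.89 (SE 0.38, adjusted p = 0.00352), and 16 were lower, beside 24.6% and 20.9% of all transcripts. Hp was among the latter (-5.27, SE 0.65, adjusted p = 0.000255), and Slc25a37 was at -5.93 (SE 0.24, adjusted p = 7.56e-07, edgeR) with 77.0 to 117 RPKM in liver and 1.65 to 2.29 in cystic EBs. Against E12.5 ysE, 2 were higher, Steap1 (1.91, SE 0.49, adjusted p = 0.0127) and Hfe2, which had no count in that library, and 20 lower, led by Mfi2 (-8.67, SE 0.55, adjusted p = 1.67e-05) and Steap4 (-7.29, SE 0.74, adjusted p = 0.000115), beside 21.1% and 18.8% of all transcripts. The median log2 fold change of the list was -0.93, -0.84 and -1.25 in the order of these comparisons, beside 0.17, 0.20 and 0.42 over all transcripts.

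Of the remaining comparisons, E9.25 ysE against liver had 13 higher and 12 lower of 36, where 26.7% and 28.3% of all transcripts were, with Mfi2 at 6.08 (SE 0.65, adjusted p = 8.9e-05), Bmp6 at 3.36 (SE 0.44, adjusted p = 0.000259) and Tmprss6, a protease that restrains hepcidin, at -5.16 (SE 0.74, adjusted p = 0.000413) by edgeR. Cd163, the hemoglobin-haptoglobin receptor of macrophages, was also called lower there, with 0 counts in ysE and, in liver, 24 counts in replicate A and 3 in replicate B. E12.5 ysE against liver had 13 higher and 4 lower, beside 22.6% and 23.7% of all transcripts, with Mfi2 at 8.45 (SE 0.74, adjusted p = 5.91e-05), Steap4 at 7.05 (SE 0.98, adjusted p = 0.000503) and Tmprss6 at -5.81 (SE 1.11, adjusted p = 0.00245), and with Lcn2, a siderophore carrier, at 0 counts in ysE and 174 in liver. From d10 to d15, 0 of 34 were called.

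**Figure D4:**
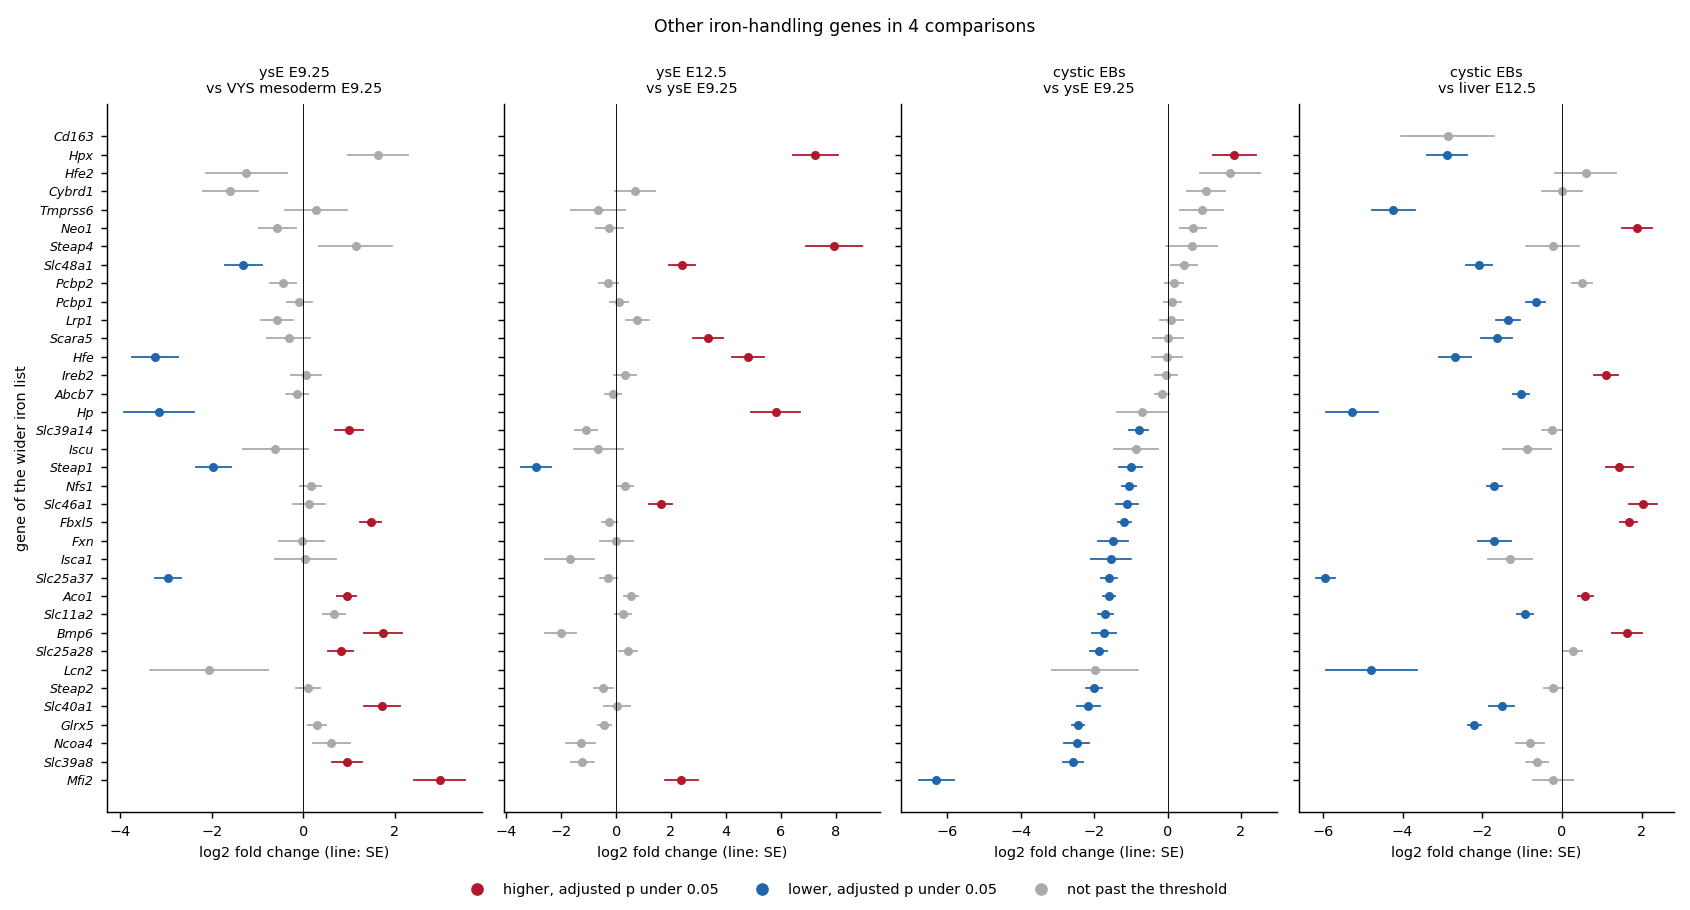
Log2 fold changes (points) with their standard errors (lines) for genes of the wider iron list in 4 comparisons, in red or blue where the adjusted p is under 0.05; genes with at most 3 counts in a group are not drawn. Most coloured points are blue (lower) in both cystic EB panels, with 18 lower and 1 higher against E9.25 ysE.

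DNA methylation was read from 6 libraries of whole genome bisulfite sequencing, 2 each of E12.5 ysE, E12.5 liver and d15 cystic EBs, 1 from each direction of crosses of CAST/EiJ and FVB/N mice. The cystic EBs came from the stem cell clones CF-C2 and FC-A2 of such crosses, not from A9 or JN. Over the CpGs with calls, 60.1% and 67.8% of reads were methylated in ysE, while liver had 77.6% and 79.8% and cystic EBs 82.6% and 87.0%. The chromosomes covered were not alike, since the liver libraries had no calls on chromosome 15 and 1 cystic EB library none on chromosome 13. Gene bodies were measured for 7 of the 10 genes, since Fth1 and Heph lie on chromosomes without calls here and Hamp had too few reads. With 2 libraries against 2, no exact permutation test over libraries can pass the threshold, and the values are given as a description.

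The median gene body methylation of the 7 genes was 72.6% and 76.0% in ysE, where all genes had 72.1% and 66.7%. It was 86.8% and 78.6% in liver (79.2% and 81.1% over all genes), and the cystic EB libraries had 85.3% and 78.5% (86.0% and 81.6%). Trf had 76.3% ± 8.28 (SD, n = 2) in ysE, with 87.4% ± 1.39 for liver and 80% ± 17.2 for cystic EBs, from 87 to 215 reads per library. The spread between the cystic EB libraries of Trf was larger than its differences between tissues. Cp had 72.3% ± 0.352 in ysE, 73.6% ± 4.32 for liver and 85.5% ± 6.49 for cystic EBs, where the lowest cystic EB value (80.9%) lay above the highest liver value (76.7%). The medians over all genes were also higher in both cystic EB libraries than in either liver library. The share of all genes without overlap is not given, so the separation is not read as particular to Cp. Tfr2 had 62.1% ± 11 in ysE, 73.8% ± 13.2 for liver and 80% ± 1.06 for cystic EBs.

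Within 1 kb of the start sites the reads were fewer. Tfrc, whose promoter is rich in CpGs, had 10.5% and 20% in ysE, 0% in both liver libraries, and 0% and 14.3% for cystic EBs, from 8 to 22 reads each. Ftl1 varied from 39.7% to 96.3% between the ysE libraries, and had 91.7% (48 reads) in the 1 liver library with a value and 21.7% and 52.6% in cystic EBs. Within 500 bases the ysE library at 39.7% came to 93.3% (15 reads), the other had no reads, and the cystic EBs came to 0% and 83.3% (11 and 12 reads). No test was made on these promoter values.

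**Figure D5:**
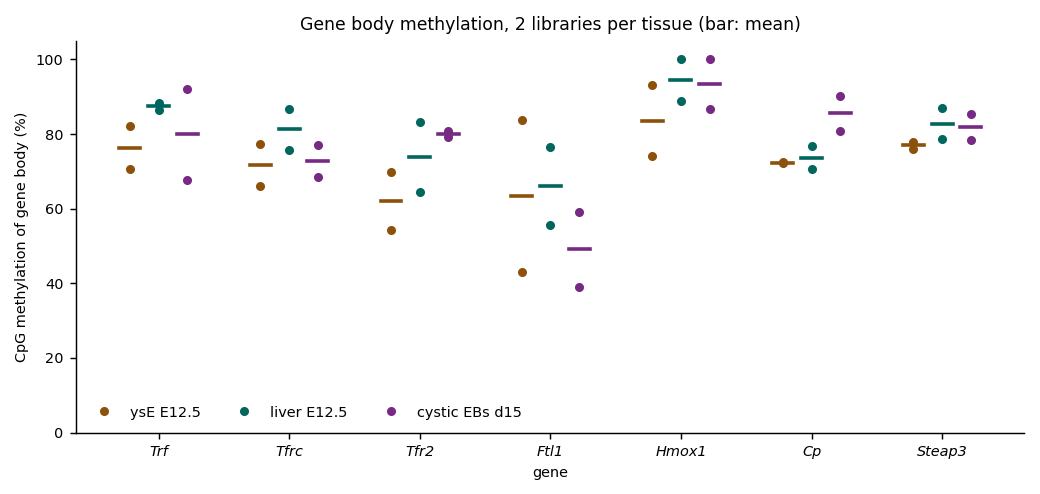
Percent of methylated reads at CpGs of 7 gene bodies, with 1 point per bisulfite library and a bar at the mean of the 2 libraries of each tissue (ysE, liver and cystic EBs). Ftl1 has the widest spread, from 39.1% to 83.7%, and rests on 9 to 70 reads per library.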

How the data were processed

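RNA-seq counts per RefSeq transcript and RPKM values were made by the authors with RSeQC and custom scripts after alignment to mm10 with GSNAP, and both were deposited without further scaling. The exon-part counts were deposited by the authors as the counting script of DEXSeq gave them, and 1 E9.25 ysE file of these held zeros only and was not used. H3K4me3 peaks were deposited with their MACS 1.4.2 score, called on 1 pooled sample. Methylation was deposited by the authors as percent per CpG with its reads, called with BisSNP.

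Counts were fitted in R 4.3.3 with edgeR 4.0.16 (filterByExpr, TMM, quasi-likelihood test, 5 groups with the 4 cystic EB libraries pooled, Benjamini-Hochberg adjustment over all transcripts, FDR 5%), which was first tested on simulated data. The 4 cystic EB libraries alone were fitted for the days. Each SE was derived from the edgeR test, as the absolute log2 fold change divided by the square root of the F statistic. limma 3.58.1, DESeq2 1.42.0 and other settings were alternatives. Library protocol as a term was set by the cystic EB clones alone, for every gene, since no other group had libraries of several protocols. TMM factors ranged from 0.766 to 1.21 and are not part of the RPKM. Labels call the libraries of a group replicates A and B. The p-values rest on a spread estimated over the 5 groups together, also where only tissues are compared. It includes differences between pooled litters and, in cystic EBs, between clones, protocols and days. E12.5 ysE has 1 library and adds nothing to it. In the fit of the days the spread is that between the clones with their protocols. Methylation was methylated reads over all reads within 1 kb of a start or over a gene, at 5 reads or more. Regions were read with pandas 2.3.3 and numpy 2.4.6 under Python 3.11.15, and figures drawn by matplotlib 3.10.9. Promoter sequences come from RefSeq (GRCm38.p6). The replicate letter stands for the clone in cystic EBs, where deviations at d10 and d15 correlated (r = 0.721), and pairs nothing else (r from -0.121 to 0.203). The main fit nevertheless counted the 4 cystic EB libraries as independent, so p-values and SEs of their comparisons may be too small.

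All 10 genes were named, with the 2 genes most like each, and from the wider list the largest changes in each direction, to which Slc40a1, Slc25a37, Hfe and Glrx5 were added after their values were seen. The genes and lists were chosen with earlier results of these data known. Fold changes of the 10 genes, but not of the wider list, were followed through the alternatives where called or at least 2-fold (Hamp was left out, and between days Trf alone was followed).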

Additional observations from a re-analysis of the deposited data

Results flagged for a closer look

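From d10 to d15, 4 of the 9 genes other than Hamp, which had 0 to 9 counts per cystic EB library and was left out here, moved in opposite directions in the 2 clones of cystic EBs, on log2(RPKM + 0.1), with 1 library per clone and day, so the difference between the clones was not tested. Opposite signs were enough, whatever the size of the change. The share of all genes with opposite signs is not given, so this count says little about these genes. Tfr2 changed by 0.09 in A9, from 4 counts to 5, and by -0.28 in JN, at levels of at most 0.196 RPKM. Hmox1 changed by 0.61 in A9 and by -0.24 in JN. Cp changed by -0.21 in A9 and by 1.52 in JN. Heph changed by -1.18 in A9 and by 0.73 in JN. No gene had a library far from the rest of its group among the groups large enough for that check, the 4 cystic EB libraries. The check looks only at the lowest or highest library, so it cannot see a split of 2 against 2, such as that of Ftl1 between the clones.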

How the results depend on the processing

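The 51 fold changes of the 10 genes that were followed, called or at least 2-fold, were recomputed 927 times, and 838 kept direction and side of the threshold, 64 lost the call, 25 gained it and 0 reversed. Fold changes of the wider iron list were not recomputed. For comparisons with E12.5 ysE, no alternative left out its single library or took library protocol as a term. Depth limits Hamp in every comparison, Cp in E9.25 ysE, Tfr2 in ysE and cystic EBs, and promoter methylation. In E12.5 against E9.25 ysE, 7 of the genes were called with only the 2 groups fitted (4 in the reported fit), Trf, Tfr2 and Fth1 being added, and leaving out 1 library gave 3 to 5. In cystic EBs against E9.25 ysE, limma on log2(RPKM + 1) without a filter called 2 instead of 4, losing Cp and Steap3, and leaving out 1 library gave 2 to 5, the lowest without E9.25 ysE replicate B. Leaving out 1 library gave 4 to 7 in E9.25 ysE against liver (7 in the reported fit) and 3 to 7 in E12.5 ysE against liver (6), both lowest without liver replicate B. The median promoter methylation over the genes with enough reads, averaged over the 2 libraries of a tissue, was 51.4% in ysE at 10 reads or more (38.5% at 5) and 36.7% in liver within 500 bases (44.7% within 1 kb). The sets of genes differed between libraries and settings. At 5 reads within 1 kb, 6 and 4 genes were measured in the ysE libraries and 3 and 6 in liver. At 10 reads, ysE replicate 2 lost Tfr2, which had 0 methylated of 5 reads. With a replicate block the counts were 5 in E9.25 ysE against mesoderm, 7 in E9.25 ysE against liver, 5 in cystic EBs against E9.25 ysE and 7 against liver, Ftl1 being added in the last 2, and 0 between days. The letters stand for clone and protocol in cystic EBs and pair nothing in the other groups. A block by letter is therefore no paired analysis between tissues. Comparisons with E12.5 ysE, which has 1 library, had no such fit. With only the 2 stages of ysE fitted, the spread came from the E9.25 libraries alone. The share of all transcripts called in these alternative fits is not given, so their counts say little about iron genes as a group. The cause of the shifts in calls was not tested. Among all transcripts, DESeq2 called 11 between days where edgeR called 0, and 3937 between the ysE stages where edgeR called 2106.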

Other observations

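For each gene, the levels most like its own over the 11 libraries are given as Pearson's r of log2(RPKM + 1) among 11944 genes, as a description with no test. Tfr2 was closest to Ssx2ip (0.993) and Ctse (0.986), and Tfrc to Mthfd2 (0.974), a mitochondrial folate enzyme, and Pgm2l1 (0.969). Ftl1, whose levels followed the library protocol, was closest to Polr2e (0.987), a subunit of RNA polymerase II, and Adat3 (0.984). Cp was closest to Mgst1 (0.983) and Ttc39c (0.974), Hmox1 to Rec8 (0.966) and Ikbkg (0.962), and Fth1 to Etohd2 (0.943) and Anapc2 (0.942). Steap3 was closest to Igtp (0.935) and Gmpr (0.933), Heph to Trim47 (0.923) and Npnt (0.922), and Hamp, with its few counts, reached only 0.766 with Rufy3 and 0.76 with Irak2.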
